A study of Mus musculus with 13 samples.

Results

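Interferon and nucleic-acid sensing genes were followed in mouse embryonic stem (ES) cells that lack the maintenance DNA methyltransferase DNMT1, and in ES cells in which a dCas9-OGA fusion protein was directed to IAP retrotransposons. The group was set as a list of 39 gene symbols. It covers the sensors of foreign or misplaced RNA and DNA, the adaptor and kinase that relay their signal, the interferon receptor and its transcription factors, and the antiviral and antigen-processing genes that interferon induces. Of these, 38 were found among the 26797 genes of the 6 replicate libraries, and all 39 among the 49671 genes of the 4 single libraries. The comparison asked whether these genes are higher where repeats lose their repression, a response known as viral mimicry. Repeat counts were at hand for the 4 single libraries only, so repeat RNA was not measured here in the 6 replicate libraries.

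Double-stranded RNA made from reactivated retroelements can be bound in the cytosol by the helicases MDA5 (Ifih1) and RIG-I (Ddx58), which signal through MAVS, and DNA can be bound by cGAS (Mb21d1), which signals through STING (Tmem173). Both routes use the kinase TBK1 and the factors IRF3 and IRF7 to induce type I interferon, which binds its receptor on the same and neighbouring cells and switches on the interferon-stimulated genes through a complex that holds STAT2 and IRF9. Mouse ES cells are known for a weak interferon response compared with differentiated cells.

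WT libraries came from AinV15 ES cells (3 replicates), an untreated line that carries the reverse tetracycline transactivator at ROSA26. Dnmt1-/- libraries came from untreated ES cells of a separate line labelled as D1-null strain, C allele (3 replicates), so that genotype and cell line cannot be told apart in this comparison. The dCas9-OGA and dCas9-OGA D242A cells (1 library each) were AinV15 cells that carry a doxycycline-inducible cassette placed by Cre-mediated exchange and 4 guide RNAs against the IAP promoter, and were harvested 48 h after 1 µg/mL doxycycline. D242A abolishes the activity of the OGA enzyme, which removes O-GlcNAc from proteins. A further library of WT and a further library of Dnmt1-/- ES cells were counted together with these, without a label that ties them to a replicate, and all RNA samples were grown on gelatin with serum and leukemia inhibitory factor.

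Reads on genes recovered from the replicate files came to between 26846275 and 37112247 per library, and counts on genes to between 18693531 and 25097983 in the single libraries. Dnmt1 was at 308, 352 and 347 in the WT replicates and at 73.6, 75.4 and 77.6 in the Dnmt1-/- replicates, and at 455 and 62.9 reads per 1000000 reads on genes (cpm) in the single WT and Dnmt1-/- libraries. Pluripotency markers summed to between 5773 and 5920 in the WT replicates and between 5614 and 6004 in the Dnmt1-/- replicates, where 3 of the 9 tested were lower and 2 were higher. Values of the replicate libraries are normalised read counts, meaning reads divided by a library size scaled so that 1 read was worth between 0.0260 and 0.0368. The single WT library stood apart from the 3 WT replicates for the genes described here, as given below, and the 2 sets were aligned with different programs and normalised separately.

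In the replicate comparison 15 of the 17 antiviral effectors tested were lower in Dnmt1-/- cells, and no member reached a 2-fold rise. On the log2(value + 0.5) scale Isg15, Ifit1 and Ifit3 had the largest differences, at 32.4-, 30.3- and 32.4-fold lower. Of the 15 sensors, relay proteins, receptor chains and transcription factors, 8 were lower and 5 (Mb21d1, Mavs, Ifnar1, Irf1 and Irf3) were higher by less than 2-fold. Of the 37 members tested, 27 were lower and 7 were higher in Dnmt1-/- at an adjusted p under 0.05 (limma, Benjamini-Hochberg over 17297 genes). Over all genes tested 71.2% passed this threshold, 35.4% as lower and 35.8% as higher. At least 2-fold lower were 18 members, against 9.41% of all genes, and none was 2-fold higher, against 3.67%. With a pseudocount of 5 in place of 0.5 the 18 became 12. At least 8-fold lower were 6 members (Isg15, Ifit1, Ifit3, Ifi44, Usp18 and Irf7), which are among 57 such genes in all (0.33%). The 6 became 3 with a pseudocount of 5, 10 with 0.1 and 11 under edgeR or DESeq2. The median log2 fold change of the members was -0.99, beside 0.01 over all genes tested. All 3 WT libraries lay above all 3 Dnmt1-/- libraries for 28 members, against 36.2% of all genes, and below them for 7, against 37.1%. Whether the replicates are separate cultures is not stated, so the p-values measure only the spread between these libraries.

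**Figure D1:**
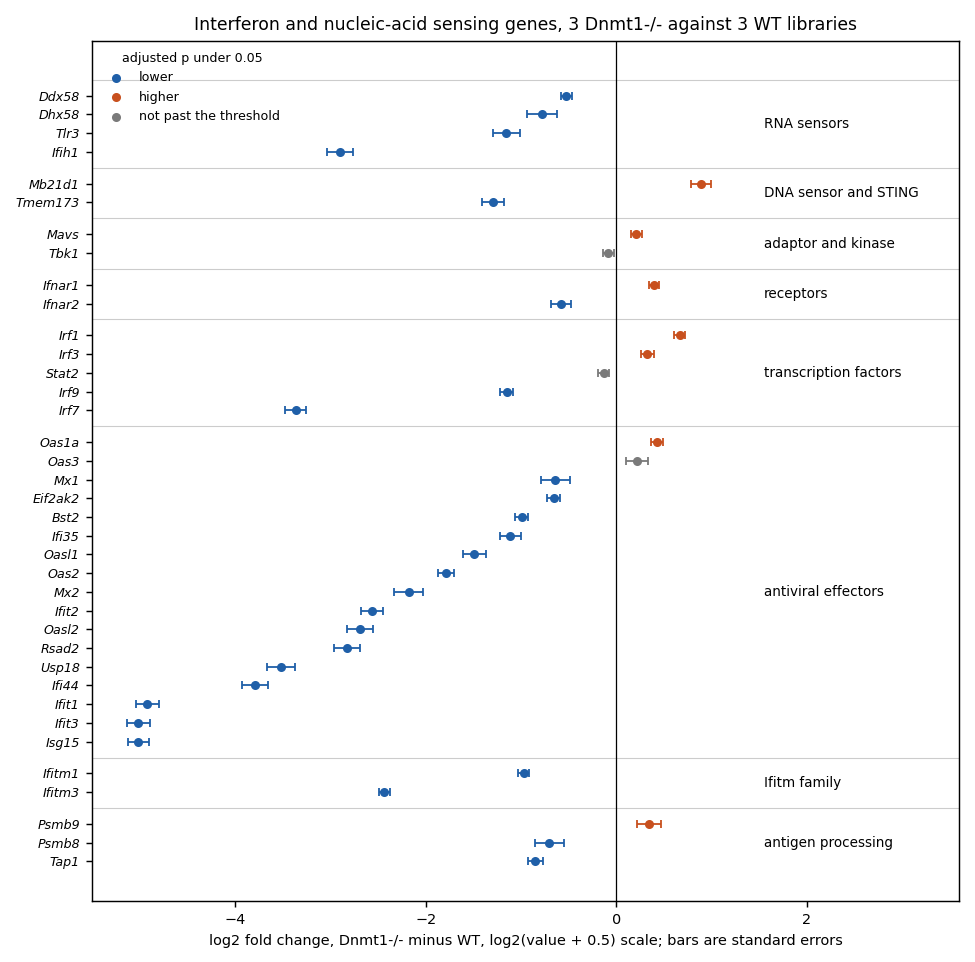
Log2 fold change (Dnmt1-/- minus WT, on the log2(value + 0.5) scale) of the 37 members tested, grouped by role, with standard errors from the limma fit over 3 WT and 3 Dnmt1-/- libraries. Antiviral effectors extend to -5.02 (Isg15 and Ifit3), whereas the highest value is 0.88 (Mb21d1).

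Markers of other cell types differed between WT and Dnmt1-/- as well. Over all genes tested 35.4% were lower and 35.8% were higher in Dnmt1-/-. All 10 markers of the fibroblast or feeder list were lower in Dnmt1-/-, with summed values between 1121 and 1608 in WT and between 269 and 301 in Dnmt1-/-, and Lum and Fap were under 1 in every library. The WT replicate with the lowest fibroblast sum, replicate 3, was also the lowest WT library for 17 of the 18 members that were at least 2-fold lower. It was the lowest WT library for 33.7% of all genes tested and for 57.8% of the 1627 genes that were at least 2-fold lower. Of the leukocyte markers, 8 of 9 tested were lower, with sums of 72.3 to 79.8 in WT and 51.8 to 53.7 in Dnmt1-/-. Most of the Dnmt1-/- sum was Cd68, the 1 that was higher, at 28.4, 33.2 and 30.6 in WT and 37.5, 40.0 and 39.6 in Dnmt1-/-. Lyz2 fell from 35.7, 32.1 and 29.8 to 9.6, 8.6 and 8.4. Adgre1 fell from 5.5, 5.5 and 4.3 to 0.94, 1.1 and 0.74, and Ptprc and Itgam were under 1 throughout. Primitive endoderm markers were higher for 9 of 10, with sums of 397 to 419 in WT and 728 to 772 in Dnmt1-/-. Trophoblast markers were higher for 7 of 8 tested, with sums of 114 to 124 and 254 to 258. Markers of the 2-cell-like state were lower for 7 of 9, with sums of 412 to 440 and 175 to 198. The part of these cell types in the result was not tested, and in bulk RNA fewer cells of a type cannot be told apart from less RNA per cell.

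Among the RNA sensors, all 4 members were lower in Dnmt1-/-. Ifih1, the sensor of long double-stranded RNA, was at 11.1, 11.6 and 8.58 in the WT libraries and at 0.731, 1.09 and 1.07 in the Dnmt1-/- libraries, a log2 fold change of -2.90 (SE 0.13, adjusted p = 1.54e-15, limma). The lowest WT library was thus well above the highest Dnmt1-/- library. Ddx58, the sensor of RNA with a 5′ triphosphate, differed less, with 56.0, 56.8 and 52.2 in WT and 38.6, 37.1 and 38.3 in Dnmt1-/- (log2 fold change -0.53, adjusted p = 8.66e-09, limma). Tlr3, an endosomal receptor for double-stranded RNA, was at 3.05, 2.47 and 1.98 in WT and 0.801, 0.920 and 0.774 in Dnmt1-/-. Dhx58, a helicase that modulates the other RNA sensors, had a log2 fold change of -0.78, and lies on chromosome 11, whose protein-coding genes had a median of 0.38 in the same comparison.

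The DNA-sensing pair moved in opposite directions. Mb21d1, which makes the cyclic dinucleotide that activates STING, was at 3.70, 3.58 and 3.41 in WT and at 6.55, 7.13 and 7.33 in Dnmt1-/-, the largest rise of any member in this comparison (log2 fold change 0.88, SE 0.10, adjusted p = 5.79e-08, limma). Tmem173 was at 6.94, 8.47 and 6.29 in WT and at 2.72, 2.83 and 2.36 in Dnmt1-/-, and fell by 1.30 on the log2 scale. For both genes the groups did not overlap. Mavs, the mitochondrial adaptor of the RNA sensors, rose from 24.9, 26.5 and 25.0 to 30.2, 29.1 and 29.2 (log2 fold change 0.21, adjusted p = 0.00405, limma). Tbk1 was at 41.1 ± 0.630 in WT and 38.8 ± 2.53 in Dnmt1-/- (SD, n = 3), with groups that overlapped and an adjusted p of 0.209 (limma).

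The receptor chains likewise diverged. Ifnar1 rose from 44.5 ± 1.15 to 58.7 ± 1.44, and Ifnar2 fell from 6.58 ± 0.286 to 4.23 ± 0.227 (SD, n = 3). Of the 5 transcription factors, Irf7, which interferon itself induces and which amplifies the response, was at 19.5, 21.1 and 17.0 in WT and at 1.29, 1.28 and 1.66 in Dnmt1-/- (log2 fold change -3.37, SE 0.11, adjusted p = 2.98e-18, limma). Irf9, the DNA-binding subunit of the complex it forms with STAT2, fell from 28.4, 28.4 and 27.4 to 12.1, 13.1 and 11.9. Stat2 was at 32.2 ± 2.09 and 29.2 ± 0.244 (SD, n = 3), a log2 fold change of -0.13 with an adjusted p of 0.0560 (limma). It passed the threshold as lower under some other settings. Irf3, the factor that is present before infection and activated by phosphorylation, rose from 29.3, 25.4 and 25.3 to 34.3, 35.0 and 31.0. Irf1 had 21.4 ± 0.477 in WT and 34.2 ± 0.323 in Dnmt1-/- (SD, n = 3), with a log2 fold change of 0.66, and shares chromosome 11 with Dhx58.

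The antiviral effectors are direct targets of interferon, whose promoters often carry the interferon-stimulated response element whose core is GAAA, then 2 bases of any kind, then GAAA. The window from 250 bases before to 50 bases after the start site was searched for this core on both strands, overlapping matches included, in RefSeq promoters of GRCm38.p6. It was present in 3.44% of 32851 promoters and in 14 of the 33 members with a promoter in the table (42.4%). The stretches before the start of Isg15, Ifit1 and Ifit3, the members with the largest falls on the log2(value + 0.5) scale, and of Oas1a, which was higher in Dnmt1-/-, are shown 5′ to 3′ on the strand of the gene, with matches to the core on either strand in capitals. They lie at chr4:156200819-156200938 (minus strand), chr19:34640765-34640884 (plus), chr19:34583353-34583472 (plus) and chr5:120907526-120907645 (minus).
Isg15: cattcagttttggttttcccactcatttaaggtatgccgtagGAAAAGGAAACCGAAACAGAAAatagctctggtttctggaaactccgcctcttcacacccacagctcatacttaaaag
Ifit1: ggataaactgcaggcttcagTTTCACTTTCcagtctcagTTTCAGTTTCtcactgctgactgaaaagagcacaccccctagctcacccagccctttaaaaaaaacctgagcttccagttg
Ifit3: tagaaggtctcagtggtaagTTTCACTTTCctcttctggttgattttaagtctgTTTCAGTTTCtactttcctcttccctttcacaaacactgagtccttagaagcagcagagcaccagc
Oas1a: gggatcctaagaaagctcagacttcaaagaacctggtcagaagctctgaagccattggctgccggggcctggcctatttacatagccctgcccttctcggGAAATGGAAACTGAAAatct
Isg15 holds 3 overlapping matches and the other promoters 2 each, on the minus strand in Ifit1 and Ifit3.

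Isg15, a ubiquitin-like protein that is conjugated to other proteins, was at 59.9, 63.7 and 45.1 in the WT libraries and at 1.46, 1.12 and 1.14 in the Dnmt1-/- libraries (log2 fold change -5.02, SE 0.11, adjusted p = 1.51e-21, limma). Ifit1, which binds foreign RNA, was at 53.7, 50.5 and 45.2 in WT and at 1.11, 1.58 and 0.848 in Dnmt1-/-. Ifit3, its binding partner, was at 54.0, 53.1 and 40.3 in WT and at 0.975, 1.32 and 0.811 in Dnmt1-/-. None of these 3 genes exceeded 1.58 in a Dnmt1-/- library or was under 40.3 in a WT library. Ifit2, the neighbour of Ifit3 on chromosome 19, was at 11.6, 11.3 and 9.77 in WT and at 1.32, 1.71 and 1.25 in Dnmt1-/- (log2 fold change -2.57). Usp18, which removes ISG15 and restrains the receptor, was at 7.17, 7.06 and 4.89 in WT and at 0.105, 0.0986 and 0.0737 in Dnmt1-/-, the latter from 3, 3 and 2 reads. Ifi44 was at 10.2, 8.44 and 8.05 in WT and at 0.105, 0.164 and 0.258 in Dnmt1-/-, from 3, 5 and 7 reads. At such read numbers the log2 fold changes, -3.52 for Usp18 and -3.80 for Ifi44, depend on the constant of 0.5 and are smaller than the ratio of the means. Under edgeR, on the recovered reads, they were -6.07 and -5.65, beside -5.52 for Isg15, -5.39 for Ifit1 and -5.57 for Ifit3. Rsad2 (viperin) was at 12.8, 10.6 and 10.5 in WT and at 0.801, 1.41 and 1.33 in Dnmt1-/- (log2 fold change -2.83). Mx2, a dynamin-like GTPase, was at 2.55, 2.57 and 1.80 in WT and at 0.0348, 0.132 and 0.184 in Dnmt1-/-.

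The OAS family, which makes or is related to the enzymes that make the activator of RNase L, was divided. Oas2 was at 19.9, 18.5 and 20.2 in WT and at 5.22, 5.39 and 5.23 in Dnmt1-/- (log2 fold change -1.79, adjusted p = 2.19e-15, limma). Oasl1 was at 5.50, 5.87 and 4.92 in WT and at 1.64, 1.68 and 1.51 in Dnmt1-/-. Oasl2 was at 9.43, 11.3 and 8.44 in WT and at 1.43, 0.822 and 1.03 in Dnmt1-/-. These members thus lay on the WT side in every library, whereas Oas1a lay on the other side, at 21.7, 23.01 and 24.1 in WT and 32.5, 30.9 and 29.4 in Dnmt1-/- (log2 fold change 0.43, adjusted p = 3.19e-06, limma). Oas1a has near-identical neighbours in its cluster, so that its reads could be shared with them in the counting. Oas3 was at 3.98 ± 0.383 in WT and 4.73 ± 0.553 in Dnmt1-/- (SD, n = 3), with groups that overlapped and an adjusted p of 0.0929 (limma).

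The remaining effectors that passed the threshold had log2 fold changes between -1.11 and -0.64. Ifi35, on chromosome 11, was at 11.1, 12.6 and 10.2 in WT and at 5.61, 5.42 and 3.94 in Dnmt1-/- (log2 fold change -1.11). Bst2 (tetherin), which holds budding virus at the cell surface, was at 92.2 ± 12.4 in WT and 45.9 ± 0.535 in Dnmt1-/- (SD, n = 3). Eif2ak2 (PKR), the kinase that stops translation on double-stranded RNA, was at 45.8 ± 3.57 and 28.8 ± 2.29. Mx1, the relative of Mx2, was at 0.778 ± 0.0421 and 0.324 ± 0.101. Of the 17 effectors tested, 15 were lower and 1 was higher, with a median log2 fold change of -2.18. The 5 transcription factors had a median of -0.13, with 2 lower and 2 higher. Of all genes tested 35.4% were lower and 35.8% were higher.

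The Ifitm genes encode small membrane proteins that block virus entry, and some are abundant in ES cells. Ifitm3 had the highest level per kilobase of exon of any member, between 282 and 338 normalised reads per kilobase in WT and between 54.2 and 58.0 in Dnmt1-/-. On the scale of normalised read counts it was at 213, 229 and 191 in WT and at 39.4, 39.3 and 36.8 in Dnmt1-/- (log2 fold change -2.44, SE 0.06, adjusted p = 5.63e-21, limma). Per kilobase, Isg15 (59.6 to 84.3) and Ifitm1 (69.8 to 73.5) overlapped in WT, but in Dnmt1-/- Isg15 was at 1.48 to 1.93 and Ifitm1 at 34.2 to 37.8. Ifitm1 fell from 78.6 ± 2.06 to 39.8 ± 2.1 normalised read counts (SD, n = 3). Ifitm2 had at most 5 reads in any replicate library and did not enter the test.

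Of the antigen-processing members, Tap1, a subunit of the peptide transporter, fell from 22.4 ± 1.33 to 12.2 ± 1.26 (SD, n = 3). Psmb9, an immunoproteasome subunit, rose from 2.31 ± 0.191 to 3.06 ± 0.160 (SD, n = 3), with an adjusted p of 0.0147 (limma) that did not hold under every setting. Psmb8 fell from 10 to 13 reads per WT library to 0 or 1 read per Dnmt1-/- library. B2m, the light chain of MHC class I, is not listed in the replicate files. Ifitm2, Psmb8 and B2m each overlap an annotated neighbour (Gm45717, Gm20496 and Patl2), and in the single libraries they had up to 5326, 88 and 636 counts. The part of that overlap in their replicate values was not tested.

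**Figure D2:**
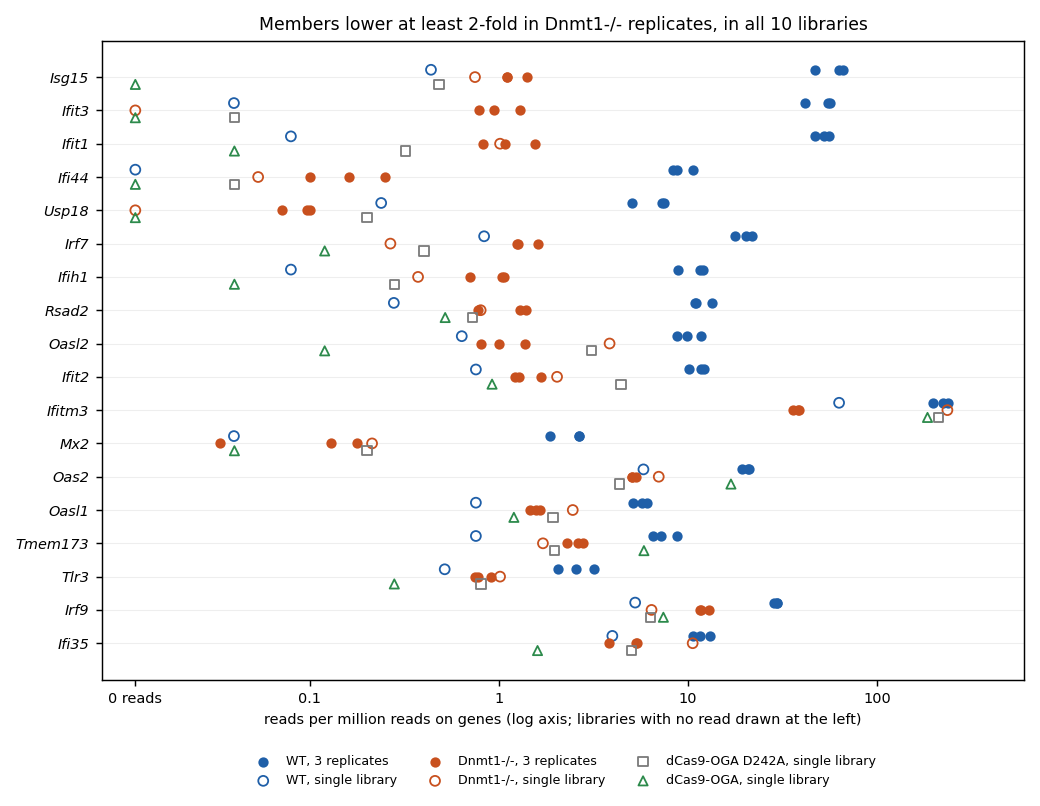
Cpm, reads per 1000000 reads on genes (log axis), of the 18 members that were at least 2-fold lower in the Dnmt1-/- replicates, in all 10 libraries. Filled points are the 3 WT and 3 Dnmt1-/- replicates and open symbols the 4 single libraries. The single WT library lies below the 3 WT replicates for all 18 genes.

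The single WT library did not carry the high levels of the WT replicates. On the cpm scale it lay below all 3 WT replicates for all 18 members that were at least 2-fold lower in Dnmt1-/-, and more than 10-fold below the lowest WT replicate for 11 of them. Over all 17297 genes, 58.3% and 15.0% did so. The 18 members were chosen as higher in these WT replicates than in Dnmt1-/-, so all genes are not a matched background for them. Isg15 had 11, 14, 12 and 0 counts in the single WT, Dnmt1-/-, dCas9-OGA D242A and dCas9-OGA libraries, and Ifit3 had 1, 0, 1 and 0. Irf7 had 21, 5, 10 and 3 counts in the same order. Every single library was therefore low for these genes, whatever its genotype.

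Summed over the 18 members without Ifitm3, the level was 341, 340 and 281 cpm in the WT replicates and 36.1, 39.4 and 34.4 in the Dnmt1-/- replicates. It was 20.5 in the single WT library, 38.6 in the single Dnmt1-/- library, 30.7 in dCas9-OGA D242A and 35.0 in dCas9-OGA. With Ifitm3, chosen to be left out after its values were seen, the sum was 479 to 577 in the WT replicates and 70.1 to 78.0 in the Dnmt1-/- replicates. The full sum was 83.4, 274, 242.1 and 220 in the single libraries in the same order, so that the order of the libraries depends on Ifitm3. On both sums the single WT library lay well below the WT replicates. Fibroblast or feeder markers summed to between 1163 and 1668 cpm in the WT replicates, between 262 and 296 in the Dnmt1-/- replicates, and between 36 and 76.5 in the single libraries. Ifitm3 was at 62.9 cpm in the single WT library and between 184 and 235 in the other 3, beside 198 to 237 in the WT replicates.

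Few reads fell on the interferon genes that could be counted. Ifnb1 had 4, 11 and 5 reads in the WT replicates, 0, 0 and 1 in the Dnmt1-/- replicates and 0 in each single library, where a count of 0 allows up to 3. Of 21 interferon ligand genes 5 are listed in the replicate files, and these 5 had 8, 20 and 9 reads in WT and 3, 1 and 3 in Dnmt1-/-. The other ligands have no value there, which is not a count of 0, since expressed genes such as B2m are unlisted as well. Over all 21 the single libraries had 2 reads in dCas9-OGA D242A and 0 in the others.

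A list of 74 other genes of the pathway was mostly lower as well. Of the 60 tested, 41 were lower and 12 were higher in the Dnmt1-/- replicates, 28 were at least 2-fold lower and none was 2-fold higher, where 35.4%, 35.8%, 9.41% and 3.67% of all genes were, and the median log2 fold change was -0.73. The largest falls, ranked on log2(value + 0.5), were in Ifi204, an interferon-inducible member of the family that binds DNA (from 13.4 to 0.456, log2 fold change -3.85), Rtp4 (-3.30), the GTPases Gbp3 (-3.07) and Iigp1 (-3.0), and Lgals3bp (-2.79). The largest rises were in Trim25, a ubiquitin ligase of the RIG-I route (from 168 to 332, log2 fold change 0.98), the signalling inhibitors Socs1 (0.72) and Socs3 (0.69), Zc3hav1 (0.65), and Oas1g (0.56), a neighbour of Oas1a. Trim25, Socs3 and Lgals3bp lie on chromosome 11, whose protein-coding genes had a median of 0.38 in this comparison. The ranking was not made relative to the chromosome medians. The kinase Jak1 had a log2 fold change of 0.04 with an adjusted p of 0.458 (limma).

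Promoters of the members differed in what else they held. Of 12 tested members with the interferon response core, 9 were lower, 6 of them at least 2-fold, and the median log2 fold change was -1.71. Of 19 without it, 12 were lower, 8 of them at least 2-fold, and the median was -0.85. Among all 11876 tested genes with a promoter in the table, 43.7% of those with the core and 34.3% of those without it were lower, and 17.5% of those with the core and 8.72% of those without it were at least 2-fold lower. The members that were at least 2-fold lower had a median of 6 CpG dinucleotides in the 300-base promoter, the other matched members 16, and all promoters 7. No promoter was found in the table for Dhx58, Tmem173, Oas2, Mx1, Mx2 and Usp18.

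In the single libraries the same genotype comparison gave other values. Of the 22 members with at least 100 counts summed over the single WT and Dnmt1-/- libraries, 6 were at least 2-fold higher in Dnmt1-/- and 1 was at least 2-fold lower, where 10.5% and 6.89% of all 12593 genes compared were. The 6 were Ddx58, Irf1, Eif2ak2, Ifi35, Ifitm1 and Ifitm3, and the lower one was Tap1, which was lower in the replicates too. The median log2 ratio of the 22 members was 0.37, beside -0.07 over all genes. Ddx58 was at 32.7 cpm in WT and 102 cpm in Dnmt1-/-, and Eif2ak2 at 3.15 and 13.1 cpm, while the ratios carry TMM scaling. Marker sums in the single WT and Dnmt1-/- libraries were 590 and 87.1 cpm for trophoblast, 231 and 139 for primitive endoderm, 32.6 and 1.28 for the 2-cell-like state and 63.1 and 36 for fibroblasts. The first 2 lists thus ran opposite to the replicates, and their part in the result was not tested. Of the other pathway genes, 45 were compared, of which 13 reached a 2-fold increase and 2 a 2-fold decrease in Dnmt1-/-. Of the 20 members compared in both, 7 had the same sign in the replicates and in the single libraries. That share was not computed over all genes, so it cannot be read as particular to the members. It also counts small changes, such as Stat2 (-0.13 in the replicates and 0.02 in the single libraries) and Mavs (0.21 and -0.03). With 1 library per genotype these differences could not be tested.

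**Figure D3:**
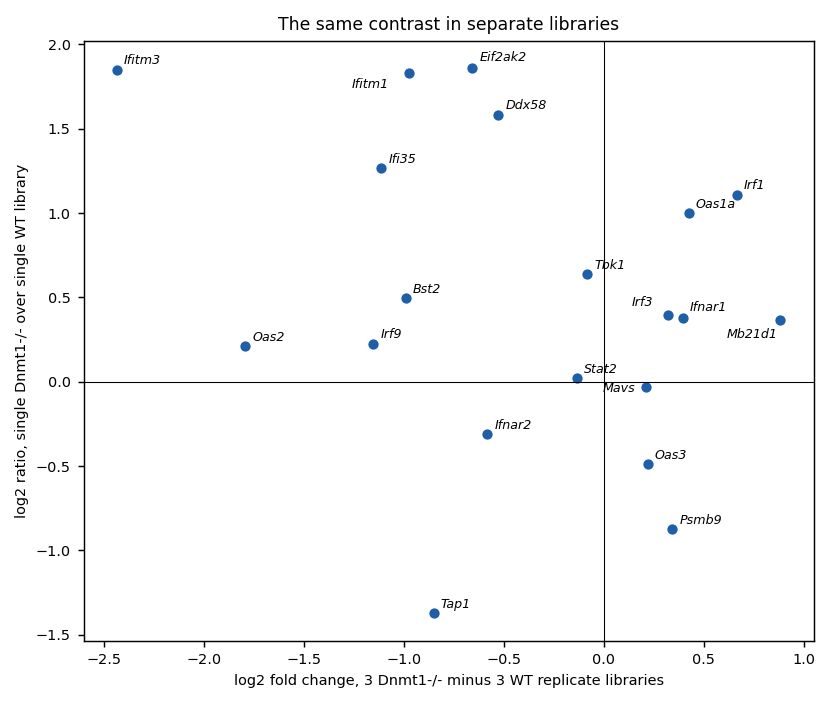
Log2 difference of Dnmt1-/- against WT in the 3 and 3 replicate libraries (horizontal axis) and in the 1 and 1 single libraries (vertical axis), 1 point per member compared in both. Ifitm3, Ifitm1, Eif2ak2, Ddx58 and Ifi35 lie at upper left, lower in the replicates and at least 2-fold higher in the single Dnmt1-/- library.

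Cells with dCas9-OGA carried more IAP RNA, and 6 of the 24 members compared differed at least 2-fold, 3 in each direction. IAPEz-int, the internal part of the IAP family that the guides target, was at 1858 TMM-scaled cpm in dCas9-OGA, 474 in dCas9-OGA D242A and 425 in the single WT library, a ratio of 3.93 between dCas9-OGA and D242A. It was at 639 on that scale in the single Dnmt1-/- library, where the count equals that of another repeat row and may be a copy. Of the 24 members with at least 100 counts summed over dCas9-OGA and D242A, 3 reached a 2-fold increase in dCas9-OGA and 3 a 2-fold decrease, where 4.88% and 7.22% of all 12722 genes compared were. A minimum of 20 counts gave 5 decreases, and a pseudocount of 5 cpm left 1 change in each direction. The median log2 ratio was -0.11, beside 0.03 over all genes, and the remaining 18 members lay between -0.91 (Ddx58) and 0.57 (Mavs). Of the other pathway genes, 46 could be compared, of which 3 reached a 2-fold increase and 11 a 2-fold decrease, with a median of -0.37. Among the decreases, Irf8, Ddx60 and Psmb10 lie on chromosome 8, whose protein-coding genes had a median of -0.47. Lgals3bp, Igtp, Irgm1 and Irgm2 lie on chromosome 11 (median -0.46), as does Xaf1, which was higher. Aim2, Parp9, Gbp2 and H2-K1 lie on chromosomes with medians between 0.07 and 0.40. Marker sums differed between these libraries, at 294 cpm in dCas9-OGA and 148 in D242A for primitive endoderm, 130 and 224 for trophoblast, and 6544 and 4659 for pluripotency. The leukocyte sums of 50.6 and 15.8 cpm were almost all Cd68, with 1243 and 374 counts, and Tyrobp had 0 counts in both. Their part in these ratios was not tested.

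The 3 higher members were Oas2, Tmem173 and Mb21d1. Oas2 had 421 counts in dCas9-OGA and 108 in D242A, a log2 ratio of cpm of 1.97 (95% exact counting interval 1.66 to 2.28), beside 146 counts in WT and 131 in Dnmt1-/-. Tmem173 had 146 and 49 counts (log2 ratio 1.58, interval 1.10 to 2.08), beside 19 in WT and 32 in Dnmt1-/-. Mb21d1 had 80 and 30 counts (log2 ratio 1.42, interval 0.80 to 2.07), and its 72 counts in WT and 74 in Dnmt1-/- were close to the dCas9-OGA library, so that D242A was the low one. In dCas9-OGA the 3 genes were at 16.9, 5.85 and 3.21 cpm in this order. These levels were below those of the WT replicates, at 19.2 to 20.9, 6.52 to 8.78 and 3.54 to 3.86 cpm. The intervals cover counting error only.

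The 3 lower members were Ifit2, Ifi35 and Ifitm1. Ifit2 had 23 counts in dCas9-OGA and 110 in D242A, a log2 ratio of -2.26 (interval -2.97 to -1.60), beside 19 in WT and 38 in Dnmt1-/-, so that D242A was the high one. Ifi35 had 40 and 125 counts (log2 ratio -1.64, interval -2.19 to -1.12), and the protein-coding genes of its chromosome, 11, had a median of -0.46 in this comparison. Ifitm1 had 2648 and 6400 counts (log2 ratio -1.27, interval -1.34 to -1.21), beside 1804 in WT and 4938 in Dnmt1-/-. Ddx58 was at 18.2 and 34.8 cpm and Ifitm3 at 184 and 211 cpm in dCas9-OGA and D242A. B2m had 439 and 636 counts, beside 287 in WT and 277 in Dnmt1-/-.

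**Figure D4:**
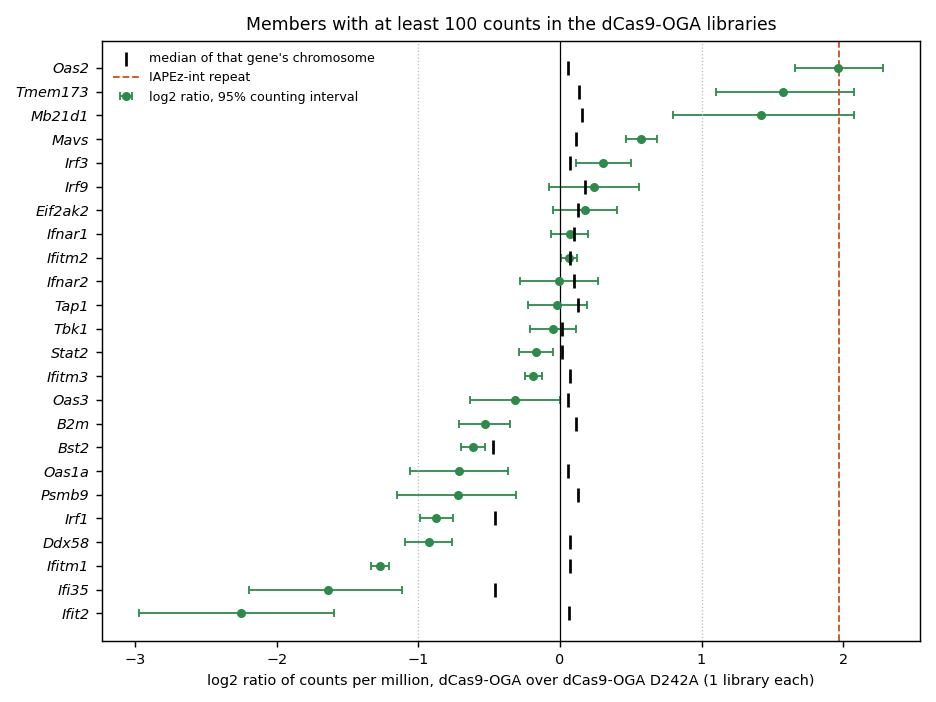
Log2 ratio of cpm of dCas9-OGA over dCas9-OGA D242A (1 library each) for the 24 members with at least 100 counts, with 95% counting intervals. Black ticks mark the median of the protein-coding genes on each gene's chromosome and the dashed line the IAPEz-int repeat at 1.97. Oas2 lies nearest to that line, and 3 genes lie above and 3 below the 2-fold marks.

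The other 15 members had too few counts to compare, and they include the genes with the largest differences in the replicates. Isg15 had 0 counts in dCas9-OGA and 12 in D242A, Ifit1 1 and 8, Ifih1 1 and 7, Usp18 0 and 5, and Irf7 3 and 10. Oasl2 had 3 and 77 counts and Psmb8 1 and 88. None of the 15 had more counts in dCas9-OGA than in D242A, which held for 60.2% of the 11047 genes with at least 1 and under 100 counts in the pair. Oasl2 had 16 counts in WT and 72 in Dnmt1-/-, and Psmb8 31 and 47, so that WT was below D242A for both.

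The dCas9-OGA and D242A libraries were also each set against the single WT library, which both comparisons and that of Dnmt1-/- share. In dCas9-OGA, 4 of 23 members were at least 2-fold higher (Tmem173, Oas2, Eif2ak2 and Ifitm3) and 1 was lower (Ifi35), where 14% and 9.78% of all genes were. In D242A, 7 of 24 were at least 2-fold higher (Ifit2, Bst2, Eif2ak2, Ifitm1, Ifitm3, Psmb8 and B2m) and 1 was lower (Irf3), where 12.5% and 8.28% were. The median log2 ratios were 0.37 and 0.24. The first was 0.18 with a minimum of 20 counts and -0.000143 with none, and the second was 0.14 with a pseudocount of 5 cpm, which also left 4 higher members in D242A and none lower in either. Eif2ak2 had 346 counts in dCas9-OGA, 306 in D242A, 245 in Dnmt1-/- and 79 in WT, and Ifitm3 had 4604, 5251, 4394 and 1579. For both genes the single WT library was the low one of the 4.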

How the data were processed

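Gene tables of 10 RNA-seq libraries were analysed. Per the labels, reads were mapped to mm10 with TopHat2 2.0.11 and Bowtie2 2.2.2 (dCas9-OGA libraries) or HISAT2 2.1.0 (replicates), and the authors counted them on Ensembl genes with featureCounts 1.5.0. The strand setting of the counting is not given in the sources used here. The authors deposited whole counts per gene and per repeat subfamily for the 4 single libraries. What they deposited for the 6 replicates is a normalised signal, in which each gene's reads were divided by a factor for the library, and whole reads were recovered for 100% of the values (tolerance 0.01 reads). Header names and columns of these files disagree, and values were read by column number. The O-GlcNAc ChIP-seq samples were not used here.

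Genes that passed edgeR's filterByExpr entered a limma 3.58.1 fit with trend on log2(value + 0.5), with Benjamini-Hochberg adjustment and a threshold of 0.05. As alternatives, edgeR 4.0.16 (quasi-likelihood) and DESeq2 1.42.0 were run on the recovered reads. Fold changes on this scale understate the change of low genes. Single libraries were compared without a test on log2(cpm + 0.5) with TMM scaling, for genes with at least 100 counts summed, and at least 2-fold counted as different. The ratios and 95% exact counting intervals given per gene carry no constant. The members, the 74 other pathway genes, the marker lists and the alternatives were chosen with earlier results of these data known. Values in every library are given for members at least 2-fold apart and for 8 members whatever their values. Of the other pathway genes, the 5 largest rises and falls are named, and Jak1 was added after its value was seen. Promoters and exon lengths came from annotation of GRCm38. The scripts were tested on simulated data. Computations used R 4.3.3 and Python 3.11.15.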

Additional observations from a re-analysis of the deposited data

Results flagged for a closer look

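For 5 members the single Dnmt1-/- library was at least 2-fold above the single WT library, although the 3 Dnmt1-/- replicates were below the 3 WT replicates. The log2 ratio in the single libraries and the log2 fold change in the replicates were 1.58 and -0.53 for Ddx58, 1.86 and -0.66 for Eif2ak2, 1.27 and -1.11 for Ifi35, 1.83 and -0.97 for Ifitm1, and 1.85 and -2.44 for Ifitm3. The difference between the 2 comparisons was not tested, since each single library has no replicate and the tables were normalised separately. Relative to the replicates, Eif2ak2 was low in all 4 single libraries (3.15 to 13.9 cpm, beside 26.4 to 51.8 cpm), whereas Ifitm3 was at 62.9 cpm in the single WT library and between 184 and 235 cpm in the other 3.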

How the results depend on the processing

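Over all genes 12324 were called by limma, 12252 by edgeR and 11404 by DESeq2. No member changed direction in the replicate comparison under any alternative, and the counts of 27 lower, 7 higher and 18 at least 2-fold lower moved between 27 and 28, 6 and 7, and 17 and 19 when each replicate was left out. The members at least 2-fold lower numbered 12 with a pseudocount of 5, 21 with 0.1, and 22 under edgeR and under DESeq2. The cause of the changes that follow was not tested. The call of Psmb9 was lost without a filter (adjusted p = 0.0528, limma), under DESeq2 (0.0660), without Dnmt1-/- replicate 3 (0.0509) and without WT replicate 2 (0.0666). Stat2 passed the threshold under edgeR (adjusted p = 0.0322), with TMM rescaling (0.0367) and without WT replicate 1 (0.0472) or WT replicate 3 (0.0366). The median log2 fold change of the members was -1.18 with a pseudocount of 0.1, -0.66 with 5, -1.11 for genes with a mean of at least 1, -1.20 under edgeR, -1.19 under DESeq2 and -1.16 relative to the chromosome medians, and between -1.10 (without WT replicate 3) and -0.97 (without Dnmt1-/- replicate 3) with a replicate left out.

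With the replicate number as a block, 12556 genes were called, and among the members Stat2 alone changed, to an adjusted p of 0.0393 (limma). Same-numbered libraries did not deviate together (r = 0.07, -0.02 and 0.07), so the numbers were not taken as pairs.

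Between dCas9-OGA and D242A the median log2 ratio was -0.056 with DESeq2's size factors, -0.22 with a minimum of 20 counts and -0.29 with none. A pseudocount of 5 cpm left 1 higher and 1 lower member, and either lower minimum gave 5 lower members. For the single Dnmt1-/- and WT libraries a pseudocount of 5 left 0 lower members, and the median was 0.50 with a minimum of 20 counts and 0.50 relative to the chromosome medians. For dCas9-OGA against WT the median was 0.43 with DESeq2's size factors, 0.21 with a pseudocount of 5, 0.18 with a minimum of 20 counts and -0.000143 with none, which reversed it. The lower members there numbered 2 with a pseudocount of 0.1, 0 with 5, 3 with a minimum of 20 counts, 3 with none and 0 relative to the chromosome medians. For D242A against WT they numbered 2 with a pseudocount of 0.1, 0 with 5 and 0 relative to the chromosome medians. With a pseudocount of 5 that comparison gave 4 higher members and a median of 0.14.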
